A study of Homo sapiens with 2 samples.

Results

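The 10 genes described here are the cyclins CCND2, CCND3, CCNE1 and CCNE2, the cyclin-dependent kinases CDK4 and CDK6, the kinase inhibitors CDKN2A, CDKN2B and CDKN1B, and the retinoblastoma gene RB1, which together drive or restrain passage through the G1 phase of the cell cycle. They were chosen by symbol, and every probe set that the platform annotation pairs with exactly 1 gene of that symbol was taken. This gave 26 probe sets, out of 41091 probe sets for 19775 genes on the array. RNA was measured on 2 expression arrays from KYSE170-luc, a human esophageal squamous carcinoma cell line that carries luciferase, per the series title. One array held RNA from cells that received an empty vector and the other RNA from cells that received SOX17 on an expression plasmid, each taken 12 h after transfection, and both were grown in the same medium with serum, per the labels. SOX17 encodes a DNA-binding SOX protein that helps form the endoderm and blood vessels of the embryo. The comparison asks how the transcripts differ when SOX17 is introduced. With a single array for each group, every difference below is between these 2 arrays, no p-value was computed, and the spread between cultures is unknown. The sources used here give neither the promoter on the plasmid nor the share of cells transfected.

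In G1, D-type cyclins bind CDK4 and CDK6 and start to phosphorylate the RB1 protein, which otherwise holds E2F transcription factors inactive. Freed E2F proteins switch on E-type cyclins and the genes of DNA synthesis, and cyclin E with CDK2 completes the phosphorylation of RB1. CDKN2A and CDKN2B encode inhibitors of the INK4 family, which block CDK4 and CDK6, and CDKN1B encodes p27, which blocks cyclin E with CDK2. In squamous carcinomas of the esophagus this circuit is often altered, by gain of cyclin D or CDK6 or by loss of CDKN2A.

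The intensities are linear values as deposited, in arbitrary units. A probe set was counted as measured when it read at or above a floor of 95 on both arrays, which is the 60th percentile of the pooled values of the 2 arrays, and a gene was read from its brightest probe set (by mean log2 value). Log2 ratios are SOX17 over empty vector throughout, so a negative value means a lower intensity on the SOX17 array. By these rules 10034 of the 19775 genes were measured (50.7%). Pairs of probe sets that read 1 gene gave an estimate of error within the arrays: the SD of 1 log2 ratio was 0.35 for dim probe sets (lowest tertile of level), 0.26 for the middle tertile and 0.17 for bright ones. The poly-A controls, which are added to RNA before labelling, had log2 ratios above 0 on all 24 probe sets (median 0.57). The 3′ to 5′ signal ratio of ACTB was 11.6 with empty vector and 10.4 with SOX17, and that of GAPDH was 1.16 and 1.18. The part of what these controls show in the ratios below was not tested. Both SOX17 probe sets lay under the floor on both arrays (4.5 and 83.8 on one, 19.1 and 6.5 on the other, empty vector first), and it was not given whether they lie in the sequence on the plasmid, so they leave the labels unchecked. All 9 listed epithelial markers with a probe set of their own were measured (KRT5, KRT13, KRT14, KRT15, DSG3, DSC3, PKP1, SFN and EPCAM). KRT13 was the dimmest of them, at 152.3 with empty vector and 131 with SOX17. In the other lists 0 of 4 leukocyte markers, 0 of 5 endothelial markers and 1 of 6 fibroblast markers (COL1A1) were measured.

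Of the 10 G1 genes, 7 were measured: CCND3, CCNE1, CCNE2, CDK4, CDK6, CDKN1B and RB1. CCND2, CDKN2A and CDKN2B lay below the floor on every probe set and on both arrays. Of the 26 probe sets, 11 were measured and 15 lay below the floor on both arrays. Of the 7 measured genes 0 differed by 2-fold and 0 by 1.5-fold between the arrays, beside 0.747% and 6.97% of all measured genes. Their log2 ratios ran from -0.54 for CDK6 to 0.35 for CCNE1, 3 above 0 and 4 below, with a median of -0.11. Over all measured genes the median was 0.03, and 45.4% lay below 0.

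**Figure D1:**
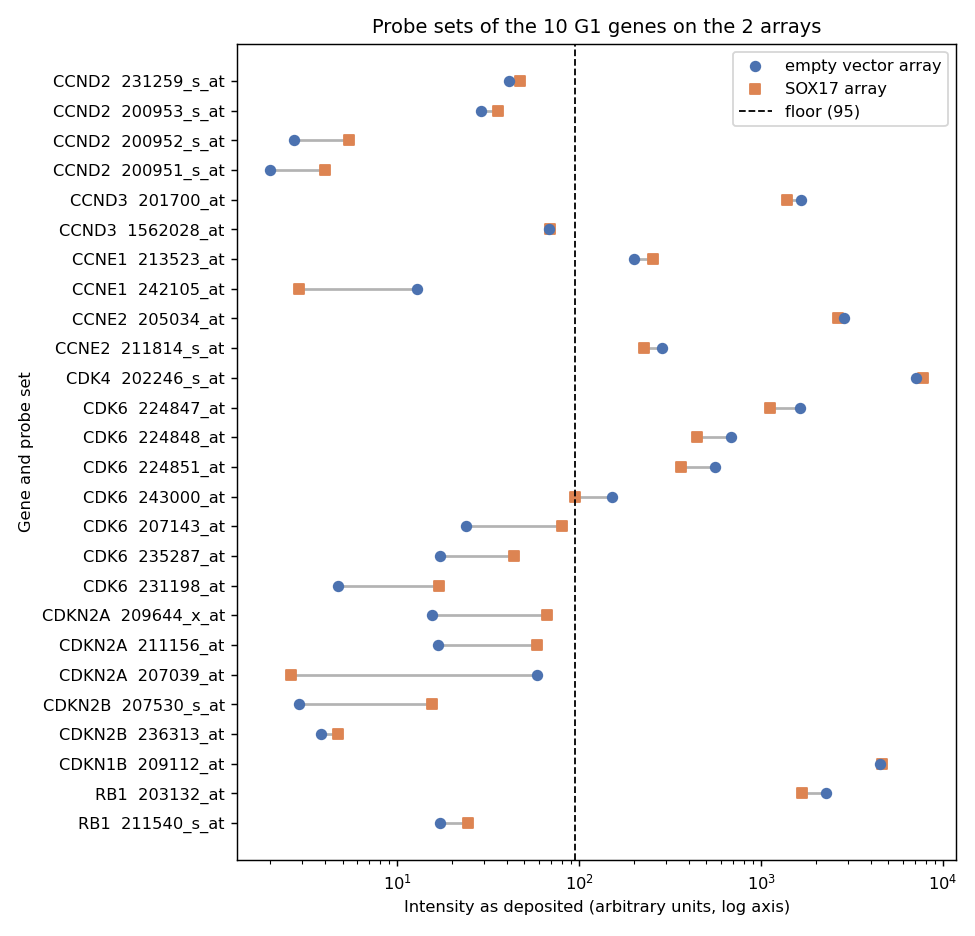
Intensity of each of the 26 probe sets of the 10 G1 genes on the empty vector array (circles) and the SOX17 array (squares), on a log axis, with the floor of 95 as a dashed line and a grey line joining the values of a probe set. The 4 measured CDK6 probe sets lie lower on the SOX17 array, and all probe sets of CCND2, CDKN2A and CDKN2B lie left of the floor.

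CDK6 was lower on the SOX17 array on each of its measured probe sets. Probe set 224847_at, the brightest, read 1639.7 with empty vector and 1124.6 with SOX17, a log2 ratio of -0.54 (1.46-fold lower). Probe set 224848_at read 681.9 and 446.5 (-0.61), and 224851_at read 558.8 and 364.3 (-0.62). The fourth, 243000_at, read 150.8 and 95.3 (-0.66), the latter just above the floor. These 4 ratios had a mean of -0.61 and an SD of 0.05 across probe sets, so that the mean was 1.52-fold lower while the brightest probe set alone did not reach 1.5-fold. The probe sets read the same RNA on each array, so their closeness bears on the error within the arrays and not on the spread between cultures. In such bulk RNA, fewer cells with the transcript and less of it per cell cannot be told apart.

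The other 3 probe sets of CDK6 had higher values with SOX17, but all lay below the floor on both arrays, where no direction can be read. Probe set 207143_at read 23.8 with empty vector and 79.9 with SOX17, 235287_at read 17.1 and 43.8, and 231198_at read 4.7 and 16.9. No ratio is given for them, as the floor of 95 lay above all 6 values. The sources used here do not give which part of the CDK6 transcript each probe set reads.

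The share of genes as uniformly lower as CDK6 was small. Among 635 genes with at least 4 measured probe sets, 108 (17%) were lower on the SOX17 array on all of them. CDK6 was the only 1 of the 635 (0.157%) whose highest ratio was as low as -0.54. It belongs to the 635 only through 243000_at, at 95.3 with SOX17 against the floor of 95. After quantile normalization or loess, or with a floor at the 75th percentile, CDK6 had 3 measured probe sets and fell outside such a group. By the mean over measured probe sets, 6 of them (0.945%), CDK6 included, were as low as CDK6. Among 4574 genes with at least 2 measured probe sets, 21 (0.459%) had a highest ratio as low. By the brightest probe set alone CDK6 was less extreme, with 4.18% of all measured genes at its log2 ratio or lower. CDK6 set the limit in each of these counts, which were made after its values had been seen and are descriptions.

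**Figure D2:**
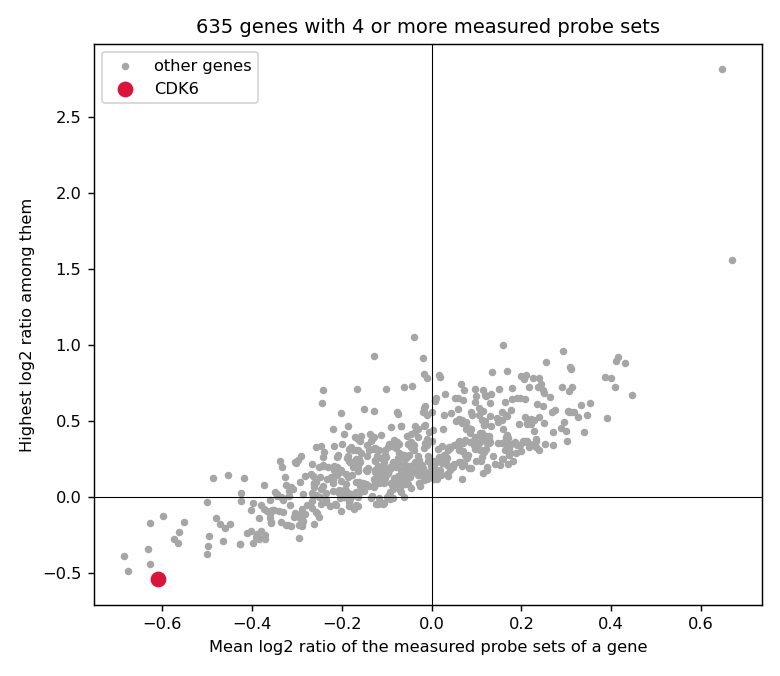
Each point is 1 of the 635 genes with 4 or more measured probe sets, placed by the mean (horizontal axis) and the highest (vertical axis) of the log2 ratios of its measured probe sets, SOX17 over empty vector. CDK6 (large red point) lies at a mean of -0.61 and has the lowest highest ratio of the 635, at -0.54.

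CDK4, the close relative of CDK6 that the same D-type cyclins activate, did not show the lower reading. Its 1 probe set, 202246_s_at, read 7071.9 with empty vector and 7763.5 with SOX17, a log2 ratio of 0.13. The ratios of CDK4 and CDK6 differed by 0.68 on the log2 scale, where the SD of such a difference within these arrays was 0.31. The spread between cultures is not in that SD, so the difference was not tested.

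Because CDK6 was lower on all its measured probe sets, the bases before its starts are shown here beside those before the start of CCNE1, the member with the highest ratio. Each sequence holds the 250 bases before an annotated start, 5′ to 3′ on the strand of the gene, from RefSeq on GRCh38.p14, and capitals mark a match to the core motif of SOX proteins, ACAAT on either strand. The first CDK6 window is chr7:92836574-92836823 and the second chr7:92833960-92834209, both on the minus strand, and the CCNE1 window is chr19:29811741-29811990 on the plus strand.
CDK6 start 1: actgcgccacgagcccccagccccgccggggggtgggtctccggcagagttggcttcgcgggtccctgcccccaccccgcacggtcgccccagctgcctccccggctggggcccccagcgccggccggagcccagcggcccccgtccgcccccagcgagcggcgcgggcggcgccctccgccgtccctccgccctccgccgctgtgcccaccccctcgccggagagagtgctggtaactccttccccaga
CDK6 start 2: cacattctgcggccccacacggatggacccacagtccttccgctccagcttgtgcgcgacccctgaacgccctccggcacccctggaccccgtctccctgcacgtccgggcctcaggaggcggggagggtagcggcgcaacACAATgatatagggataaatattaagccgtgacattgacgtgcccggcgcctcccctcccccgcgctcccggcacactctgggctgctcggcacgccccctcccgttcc
CCNE1 start 1: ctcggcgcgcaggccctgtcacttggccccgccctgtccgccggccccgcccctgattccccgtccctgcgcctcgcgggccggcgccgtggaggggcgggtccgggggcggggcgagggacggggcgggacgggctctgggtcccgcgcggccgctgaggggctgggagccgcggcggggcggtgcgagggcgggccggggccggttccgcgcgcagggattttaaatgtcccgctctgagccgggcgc
The second CDK6 window holds 1 match, beginning 109 bases before the start, and the other windows shown hold 0. RefSeq windows were searched for 8 of the 10 genes, 12 windows in all. CCND2 and CCNE2 were left out of the search, so the counts of matches do not cover them, whether or not RefSeq lists starts for them. Of the 12 windows 2 held a match, the second of CDK6 and 1 of the 3 windows of CCND3. Of 35116 windows of the same length across all genes 24.6% held one. Matches to the E2F motifs TTTCCCGC, TTTCGCGC, TTTGCCGC and TTTGGCGC, again on either strand, were found in 0 of the 12 windows and in 2.79% of all windows. RB1 had 1 window, chr13:48476200-48476449, with 36.8% G or C, where the other windows had 61.2% to 81.2%. It was not checked whether this window lies before the main start of RB1, so its bases and lack of matches describe this window only. Starts of these genes outside the 12 windows were not searched, so the counts do not cover every promoter of the members. A match is a run of letters and does not show that a protein binds there, and the arrays did not measure binding.

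The D-type cyclins, which carry growth factor signals to CDK4 and CDK6, differed little where they were measured. CCND3 read 1655.6 with empty vector and 1387.3 with SOX17 with probe set 201700_at, a log2 ratio of -0.26, about the size of the SD of 1 ratio at that level. Its other probe set, 1562028_at, read 68.3 and 68.9, below the floor. The 4 probe sets of CCND2 read between 2 and 40.9 with empty vector and between 4 and 47.3 with SOX17. All 8 CCND2 values lay under the floor, so neither array gave a level for it. CCND1, the remaining D-type cyclin, had a log2 ratio of -0.20 on its brightest probe set and of -0.34 on its other one. The ratios of CCND3 and CCND1 differed by 0.06, less than the SD of 0.31 of such a difference.

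The E-type cyclins, partners of CDK2 at the entry to S phase, had ratios on opposite sides of 0. CCNE1 read 200.1 with empty vector and 255.8 with SOX17 with probe set 213523_at, a log2 ratio of 0.35 (1.28-fold higher). At that low level the SD of 1 ratio was 0.35, as large as the ratio itself. Its other probe set, 242105_at, read 12.8 and 2.9, under the floor. CCNE2 read 2860.2 and 2654.7 with probe set 205034_at (-0.11), and 283.9 and 228.3 with 211814_s_at (-0.31). Both CCNE2 ratios lay below 0, and neither exceeded the SD of 1 ratio at its level, 0.17 and 0.35. The ratios of CCNE1 and CCNE2 differed by 0.46, with an SD of 0.39 for such a difference, so these arrays do not separate them.

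Among the inhibitors, only CDKN1B was measured. Its 1 probe set, 209112_at, read 4496.7 with empty vector and 4584.9 with SOX17, a log2 ratio of 0.03, near the median of all measured genes. CDKN1A, which encodes p21 of the same CIP/KIP family, had a log2 ratio of -0.74 (1.67-fold lower) on its 1 probe set. Of all measured genes 3.19% were 1.5-fold lower or more. The ratios of CDKN1B and CDKN1A differed by 0.77, with an SD of 0.31 for such a difference within these arrays. The spread between cultures is not in that SD, and the difference was not tested. CDKN1A is a p53 target and was the only 1 of 3 other inhibitor genes with a probe set of their own that was measured. CDKN1C, the third gene of that family, read 110.4 with empty vector and 79.4 with SOX17 on its brightest probe set, too near the floor for a bound.

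The INK4 genes among the members, CDKN2A and CDKN2B, lay below the floor throughout. The 3 probe sets of CDKN2A read 15.5, 16.7 and 58.6 with empty vector and 66.6, 58.4 and 2.6 with SOX17, in the same order of probe sets. The 3 probe sets did not move the same way between the arrays, and no direction can be read from them. The 2 probe sets of CDKN2B read 2.9 and 3.8 with empty vector and 15.6 and 4.7 with SOX17. CDKN2A and CDKN2B are neighbours on chromosome 9, and the 8 listed genes around them are given in the order of the RefSeq annotation, with the value for empty vector first. MLLT3 (160.3 and 155.9) and FOCAD (603.3 and 675.8) were measured, HACD4 was not, KLHL9 was (675.1 and 859.2), and the interferon gene IFNE was not. MTAP, the methionine salvage gene near CDKN2A, had 0 of 6 probe sets measured, and its highest values were 58.7 with empty vector and 149.5 with SOX17, on the same probe set. Beyond CDKN2B, DMRTA1 was below the floor on both arrays, and ELAVL2 was measured, at 2151.3 and 1588.5. A value under the floor does not show that a transcript is absent, 49.3% of all genes were not measured, and DNA copy number was not assayed here.

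RB1, the gate that the cyclin-dependent kinases open, was lower on the SOX17 array on its 1 measured probe set. Probe set 203132_at read 2262.7 with empty vector and 1680.1 with SOX17, a log2 ratio of -0.43 (1.35-fold lower), where the SD of 1 ratio was 0.17. Of all measured genes 7.65% had a ratio as low or lower. Its other probe set, 211540_s_at, read 17.2 and 24.4, under the floor. The related pocket proteins had similar ratios, with RBL1 (p107) at -0.39 and RBL2 (p130) at -0.43. RBL1 was lower on both of its measured probe sets (-0.39 and -0.70), and RBL2 had 1. The ratios of RB1 and RBL1 differed by 0.04 and those of RB1 and RBL2 by 0.004, where the SD of such a difference was 0.31. RBL1 was named after its values had been seen.

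**Figure D3:**
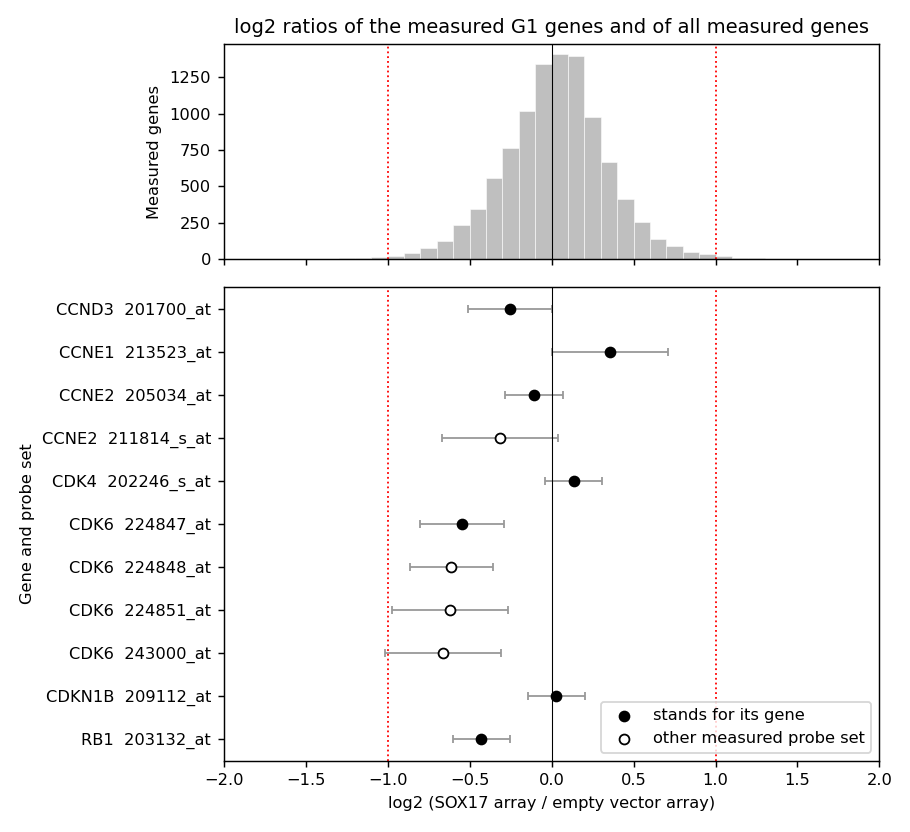
Upper panel, number of measured genes by log2 ratio, SOX17 over empty vector, in bins of 0.1. Lower panel, the log2 ratio of each of the 11 measured probe sets of the G1 genes, filled where the probe set stands for its gene, with bars of 1 SD of a ratio at that level within these arrays (no replicates). Dotted lines mark 2-fold, which 0 of the 11 reach, and the 4 CDK6 probe sets and RB1 lie farther below 0 than their bars reach.

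Around the 10 genes, more pocket protein and E2F factor genes read lower with SOX17 than higher, by small amounts, and the genes that E2F controls lay close to all measured genes. Of 14 measured genes of the pocket protein and E2F list 10 lay below 0, with a median log2 ratio of -0.16, beside 45.4% and 0.03 over all measured genes, and 0 of 14 passed 2-fold. With the mean over the probe sets of a gene 8 of the 14 lay below 0, with a median of -0.06. E2F3, an activator, read 2092.6 with empty vector and 1524.5 with SOX17 (-0.46), but its other measured probe set had a ratio of 0.24. The repressor E2F8 lay at -0.44, on 1 measured probe set, as did RBL2 at -0.43. Of 19 measured E2F target genes 13 lay above 0, with a median of 0.06 and 0 past 2-fold, beside 54.6% above 0 and a median of 0.03 over all measured genes. With the mean over probe sets 10 of the 19 lay above 0. The median of the targets was then 0.01, under the 0.02 of all measured genes, and it also fell under theirs after quantile normalization (0.02 against 0.04) and loess (0.019 against 0.030), and with no floor (0.06 against 0.08). The helicase subunit MCM2 lay at -0.56, MYBL2, a transcription factor of late G1, at -0.44, and the replication factor GINS2 at 0.33, each on 1 measured probe set. The difference between the lists was not tested.

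Other cyclins, kinases and activators of the G1 to S transition lay close to 0. Of 8 measured genes 3 lay above 0 and 5 below, with a median of -0.01 and a range of -0.20 to 0.24. The highest was the phosphatase CDC25A at 0.24, which removes inhibitory phosphates from CDK2, although its other measured probe set lay at -0.72. CCND1 at -0.20 was the lowest, and cyclin A2 (CCNA2) lay at 0.13 on both of its probe sets. Of 12 measured genes for ubiquitin ligases that act on G1 regulators, and for partner proteins such as CDC34 and CKS1B, 7 lay above 0, with a median of 0.07. One of them, FBXW7, was 1.5-fold lower or more, beside 3.19% of all measured genes. FBXW7, which marks cyclin E for destruction, read 1099.5 with empty vector and 652.9 with SOX17 (-0.75), and its 3 measured probe sets ranged from -0.75 to 0.03. CKS1B, a cofactor in the destruction of p27, lay at 0.38 on 1 probe set, and FBXO4 at 0.44, with -0.58 on its other one.

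**Figure D4:**
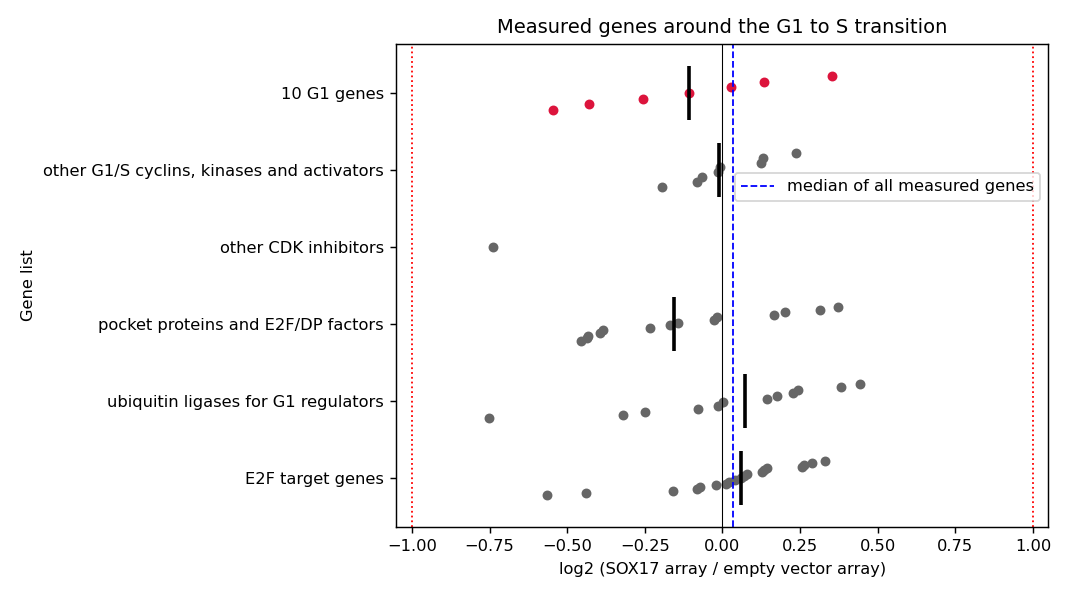
log2 ratio, SOX17 over empty vector, for each measured gene (points) of the 10 G1 genes and 5 related lists, with the median of each list of more than 1 gene as a black bar, the median of all measured genes (0.03) as a dashed line and 2-fold as dotted lines. No point passes 2-fold, and the medians of the lists with more than 1 measured gene run from -0.16 to 0.07.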

How the data were processed

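RNA on 2 Affymetrix arrays, 1 per group, was labelled as biotinylated cRNA from total RNA, per the labels' protocols. The authors deposited a linear intensity for each probe set on each array, and the submitters' processing notes name GCOS as their software. Its algorithm and settings, and any detection calls, are not given in the sources used here. Each array's mean, trimmed of 2% of values at either end, was 500.1, so by the values both had been scaled to 1 common mean, and they were used as deposited. A shift shared by all transcripts is thereby removed. Intensities ran from 0.1 to 69631.3. The number of arrays limits the precision.

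Probe sets were named through GEO's annotation of the platform, with symbols updated through RefSeq gene IDs. The SD of 1 log2 ratio is that of the difference between the 2 brightest measured probe sets of each of 4574 genes, divided by the square root of 2. The genes named are the 10 members with all probe sets, and from each related list those past 2-fold and up to 3 measured genes with the largest absolute log2 ratio. Any other gene was chosen after its values were seen. Members and lists were chosen with earlier results of these data known. Of the related and marker lists, 8 listed genes had no probe set of their own and were not analysed here. Alternatives were centring, quantile normalization, loess (span 0.4), no floor or one at the 50th or the 75th percentile, the mean over probe sets, omission of _x_at and _s_at probe sets, and thresholds of 1.5-fold and 3-fold. Python 3.11.15 was used with pandas 2.3.3, numpy 2.4.6, statsmodels 0.14.6 and scipy 1.17.1, and the computations were tested on simulated data.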

Additional observations from a re-analysis of the deposited data

How the results depend on the processing

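The 7 measured members kept the sign of their log2 ratio under every alternative that measured them. CDK6 ranged from -0.61 to -0.52, RB1 from -0.44 to -0.41, CCND3 from -0.26 to -0.23, CCNE1 from 0.34 to 0.37, CCNE2 from -0.21 to -0.07, CDK4 from 0.11 to 0.13 and CDKN1B from 0.02 to 0.05. After quantile normalization and loess 3 CDK6 probe sets were measured, as the fourth fell under the floor, and with a floor at the 75th percentile 3 as well. With no floor all 7 CDK6 probe sets counted, and the mean of their log2 ratios was 0.36, above 0. The 3 probe sets so added read under 95 on both arrays. The brightest CDK6 probe set, which gave the gene its ratio there, stayed at -0.54. With that floor CCNE1 was not measured, and without the _x_at and _s_at probe sets neither CDK4 nor, outside the members, CDKN1A was. No member passed 2-fold under any alternative but one. With no floor 2 members passed 2-fold, CDKN2A and CDKN2B, both on values under 95, the median of the members turned to 0.08, and the error of 1 log2 ratio was 1.14. The count of all genes past 2-fold moved most, from 75 to 207 when the floor was the 50th percentile, 16 for the 75th and 4685 with none. It was 699 at 1.5-fold and 3 at 3-fold. With the floor at the 75th percentile 43.8% of those genes were higher on the SOX17 array, against 56% as reported. Among the other CDK inhibitors 1 gene passed 2-fold with no floor, and 1 passed at 1.5-fold, as did 1 of the ubiquitin ligase genes. Of the genes near CDKN2A and CDKN2B 1 passed 2-fold when the floor was the 50th percentile and 2 with none, and their median turned from 0.06 to -0.24 with no floor and to -0.28 when _x_at and _s_at probe sets were omitted. The medians of 2 further lists crossed 0. They were the ubiquitin ligase genes and partners with the mean over probe sets (-0.03), and the other cyclins and kinases without _x_at and _s_at probe sets (0.06). A ratio, median or error was taken as moved when it shifted by 0.27 or more, the SD of 1 log2 ratio over all levels, since there were no replicates. A count was taken as moved when it changed by a factor of more than 1.5, or from or to 0. No cause beyond the construction of each alternative was tested. No paired analysis was possible because each group had 1 array.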

Other observations

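The remaining cyclin and cyclin-dependent kinase genes of the array, taken by symbol after the data had been seen, gave no shared direction. Of 36 such genes 31 were measured, 13 above 0 and 18 below, with a median log2 ratio of -0.05 and 0 past 2-fold by the brightest probe set. CCNF lay at 0.24 on its brightest probe set but at 1.27, past 2-fold, on its other measured one. CCNT2, a cyclin of the transcription elongation factor P-TEFb, read 969 with empty vector and 586.3 with SOX17 (-0.72), and its 3 measured probe sets ranged from -0.72 to -0.63. Its relative CCNT1 lay at -0.10, with 0.56 on its other probe set. CCNO, a cyclin known from cells with many cilia, was highest, at 190.1 and 324.5 (0.77), on 1 measured probe set. In the lowest tertile of level, where CCNO lies, the SD of 1 ratio was 0.35. The mitotic cyclins CCNB1 and CCNB2 lay at 0.19 and 0.26. CDK16 lay at 0.48 on its brightest probe set while its 3 measured probe sets ranged from -0.77 to 0.48, and those of CDK12 ranged from -0.79 to 0.36. Next to these, the 4 CDK6 probe sets spanned -0.66 to -0.54.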
